A study of Homo sapiens with 8 samples.

Results

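The 10 genes described here are CDKN1A and 9 other direct targets of the transcription factor p53: MDM2, GDF15, SESN1, BTG2, ZMAT3, TP53I3, FAS, TP53INP1 and RRM2B. They were chosen by symbol, to see whether CDKN1A moved with other p53 targets or by itself, and all 10 were found among the 28518 gene rows of the count table and passed the filter on low counts. RNA was sequenced from HaCaT cells, an immortalised human keratinocyte line, whose CARD14 gene had been knocked out in every group. The 4 groups differed in the plasmid they received (9 ug per 10 cm dish), which encoded CARD14 and, after a self-cleaving peptide, eGFP. The CARD14 was wild type (WT) or carried R820W, N737H or I593T, which the series calls hypomorphic, and cells with GFP were collected by sorting at 24 h. Each group had 2 libraries, A and B, which were read as the study's 2 independent experiments. The level of CARD14 came from a plasmid in all groups, and no library of untransfected cells was analysed here.

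p53 is a tetrameric transcription factor that DNA damage and other stresses stabilise. Its target CDKN1A encodes p21, which binds cyclin-dependent kinases and PCNA and holds cells before S phase, and MDM2 encodes the ubiquitin ligase that returns p53 to low levels. CDKN1A is also transcribed without p53, for example when keratinocytes leave the basal layer, through SP1 and KLF factors at GC-rich elements close to its start. p63, a relative of p53 that basal keratinocytes need, binds many of the same response elements.

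The promoter sequences of CDKN1A and MDM2 are shown because these were the members whose group means lay farther apart than their replicates. Each run is the 250 bases before the RefSeq start (GRCh38.p14, plus strand), with the GC-box letters GGGCGG in capitals wherever they occur on either strand. CDKN1A lies on chromosome 6 (chr6:36678464-36678713) and MDM2 on chromosome 12 (chr12:68807922-68808171).
CDKN1A: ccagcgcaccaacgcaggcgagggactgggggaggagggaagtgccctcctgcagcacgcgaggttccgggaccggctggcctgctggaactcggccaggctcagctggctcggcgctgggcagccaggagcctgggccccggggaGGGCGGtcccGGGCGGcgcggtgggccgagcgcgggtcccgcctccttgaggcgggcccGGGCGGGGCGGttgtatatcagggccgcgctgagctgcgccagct
MDM2: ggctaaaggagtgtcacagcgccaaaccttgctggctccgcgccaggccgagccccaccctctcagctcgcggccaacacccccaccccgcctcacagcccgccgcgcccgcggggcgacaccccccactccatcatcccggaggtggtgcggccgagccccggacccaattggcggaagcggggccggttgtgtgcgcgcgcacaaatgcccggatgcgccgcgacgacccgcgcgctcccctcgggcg
The CDKN1A run held GGGCGG at 4 places, of which the 2 nearest the start share 1 base, and the MDM2 run held it at none. Among the 27305 promoters of that table, 42.3% had it at least once, as did 6 of the 8 members with an entry (CDKN1A, GDF15, SESN1, BTG2, ZMAT3 and FAS). TP53INP1 and RRM2B had no entry. The p53 half-site, searched on both strands, was found in 5.53% of all promoters and in 0 of the 8, which says only that these letters are not in this window. The well-known p53 sites of CDKN1A lie farther upstream, and those of MDM2 lie within the gene.

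Libraries held 17892608 to 24629860 counts, and levels are given in CPM, a gene's counts relative to the total of its library (in edgeR's usual unit, after scaling by the trimmed mean of M values, TMM). The cells had the RNA of keratinocytes: all 7 markers of that type, such as KRT5, KRT14 and TP63, were above 1 CPM. The summed fibroblast markers reached at most 1.2 CPM, leukocyte markers 0.564, melanocyte markers 3.10 (TYR at 0 throughout) and endothelial markers 2.85. CARD14 varied within groups and stood at 444 and 1005 CPM in N737H A and B, against 1127 and 978 in WT. N737H B had the most genes detected, 21059, where the other 7 libraries had 17836 to 18855. Fewer cells of a kind and less RNA per cell cannot be told apart in such bulk samples.

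CDKN1A was lowest with N737H, at 217 CPM in A and 173 in B, where WT had 380 and 334. With I593T it was at 262 and 273, and with R820W at 356 and 329. Both N737H libraries lay below all other libraries, both I593T libraries lay between them and the rest, and R820W and WT overlapped. Counting error was small beside these gaps, since 3513 to 8640 reads were counted per library and the exact 95% Poisson interval in N737H B ran from 167 to 179 CPM (counting error only). Group means were thus 357 ± 33.0 with WT (SD, n = 2), 342 ± 19.3 with R820W, 268 ± 7.62 with I593T and 195 ± 31.1 with N737H.

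Against WT, the fitted log2 fold change of CDKN1A was -0.87 ± 0.17 (SE) with N737H, with a 95% interval of -1.26 to -0.49, which is 0.546 times the WT level. The difference was -0.81 in A and -0.95 in B. It was -0.42 ± 0.16 with I593T (interval -0.79 to -0.04, -0.54 in A and -0.29 in B) and -0.06 ± 0.16 with R820W (-0.44 to 0.32). By edgeR's quasi-likelihood test with Benjamini-Hochberg adjustment over 14834 genes, none of the 3 passed (adjusted p = 1.00 in each), and no gene at all was called, so that 0% of genes is the background in each of the 6 comparisons of groups. Ordered by unadjusted p, CDKN1A ranked 3 of 14834 with N737H and 120 with I593T. Genes with an unadjusted p under 0.05 were 2.44% of those tested for N737H, 1.43% for I593T and 1.04% for R820W, and the members among them were CDKN1A for N737H, CDKN1A and MDM2 for I593T and none for R820W. DESeq2 with the replicate letter as a block called CDKN1A for N737H (adjusted p = 0.000271), where it called 0.106% of genes, and it called 0 of the other 9 members.

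Between variants the order of CDKN1A was R820W, I593T, N737H. The log2 fold change of R820W against N737H was 0.81 ± 0.17 (interval 0.43 to 1.19), with 0.71 in A and 0.93 in B. N737H against I593T stood at -0.46 ± 0.16 (-0.84 to -0.08), or -0.28 without N737H replicate B, and R820W against I593T at 0.35 ± 0.16 (-0.02 to 0.73). None passed (edgeR adjusted p = 1.00 in each), and DESeq2 with the block called the first of these (adjusted p = 0.000896, with 0.159% of genes called). I593T against WT was at -0.27 without WT replicate A.

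**Figure D1:**
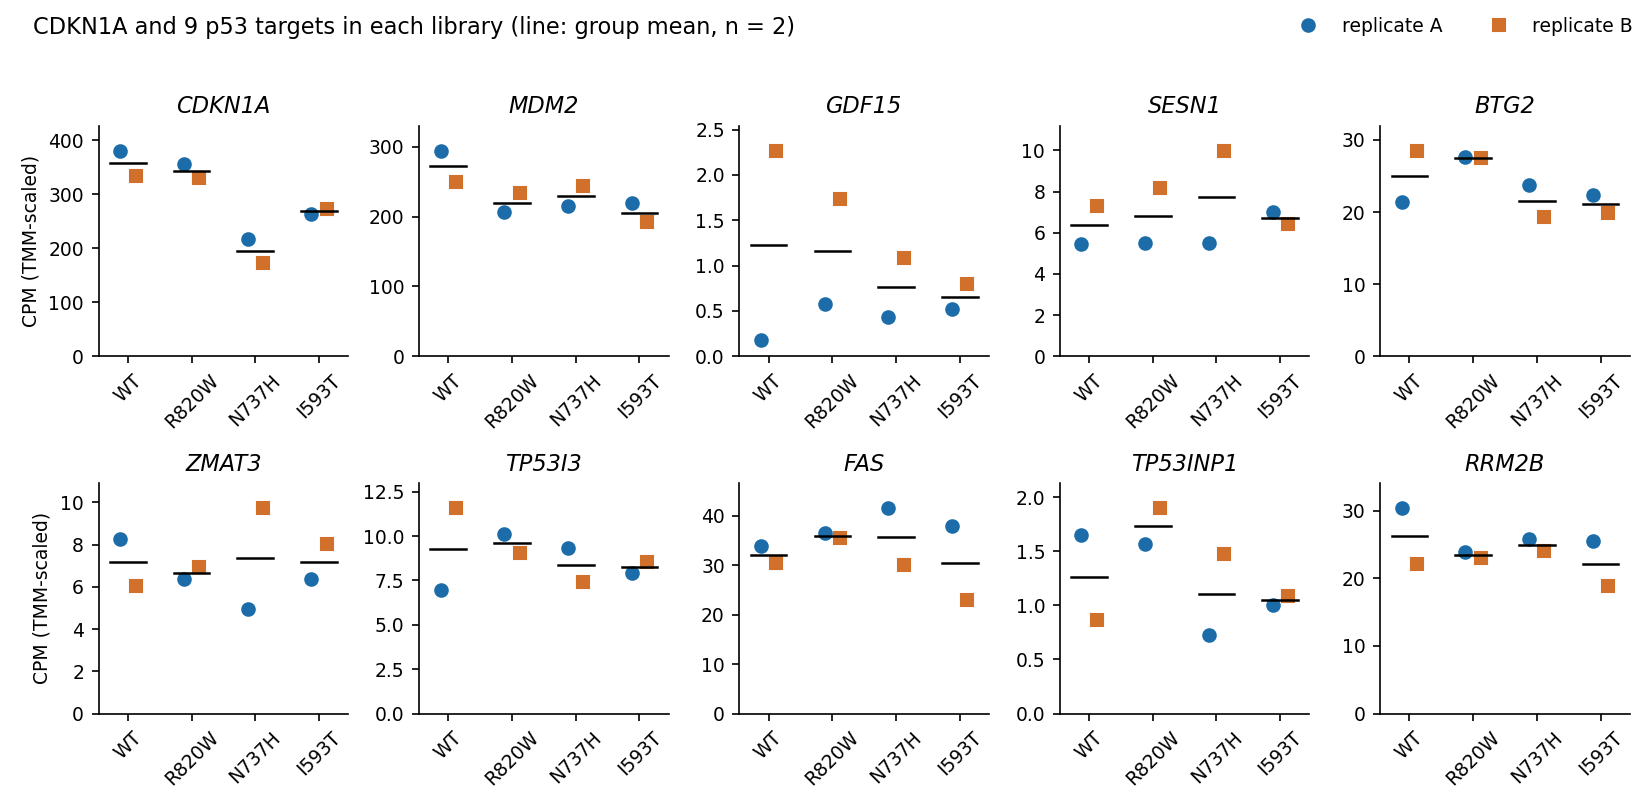
CPM (linear axes from 0) of each of the 10 members in the 8 libraries, with circles for replicate A, squares for B and a line at the mean of each group. For CDKN1A the N737H points, 217 and 173, lie below all other libraries, while for GDF15, SESN1 and ZMAT3 the points within a group lie farther apart than the group means do.

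Other measures also differed between the groups, in part in the order of CDKN1A. The summed keratinocyte markers were at 3573 and 3123 CPM in N737H A and B, below the 4275 and 4775 of WT, and at 3718 and 4183 with I593T and 5119 and 4343 with R820W. All 7 were lower than WT by the fit with N737H, where 54.2% of all genes were, 5 of them without overlap, where 12.4% of all genes were, and none was called. Their part in the CDKN1A result was not tested. In A, CARD14 RNA was at 444 CPM with N737H, 500 with I593T, 1127 in WT and 1190 with R820W. CDKN1A in A was also lowest with N737H and next lowest with I593T. In B, CARD14 was at 1005 CPM with N737H, 1394 with I593T, 978 in WT and 1410 with R820W. There CDKN1A was again lowest with N737H, while CARD14 was lowest in WT. CDKN1A was lower in B than in A with N737H, WT and R820W. The part of CARD14 in the CDKN1A result was not tested. Without N737H replicate B the log2 fold change of CDKN1A against WT was -0.70, and without replicate A it was -1.07.

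MDM2, the ubiquitin ligase that closes the feedback loop on p53, was lower than WT with every variant, by less than CDKN1A with N737H. It was at 295 and 250 CPM in WT A and B, 206 and 233 with R820W, 215 and 244 with N737H and 219 and 193 with I593T. Every variant library lay below both WT libraries. The log2 fold changes were -0.31 ± 0.16 with R820W, -0.25 ± 0.16 with N737H and -0.40 ± 0.16 with I593T, none past the test (edgeR adjusted p = 1.00 in each). Without WT replicate A they were -0.14, -0.07 and -0.23. The difference within N737H was uneven between the letters, at -0.46 in A and -0.04 in B. Genes on the opposite strand overlap exons of some members, and whether counting used the strand is not stated. At MDM2 (3897 to 6439 counts per library) this is the carboxypeptidase M gene, with 38 to 115 counts, at FAS it is ACTA2, with 13 to 41, and at CDKN1A it is DINOL, not analysed here.

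BTG2, SESN1 and GDF15 stand for arrest, growth control and secretion. BTG2, an antiproliferative co-regulator of transcription and mRNA decay, was at 21.3 and 28.5 CPM in WT A and B, and at 23.8 and 19.3 with N737H. It was thus higher than WT in A (0.15) and lower in B (-0.56), with a fitted -0.21 ± 0.21, and I593T did the same (0.06 and -0.51). SESN1, a sestrin that restrains mTORC1, was at 5.45 and 7.29 CPM in WT and 5.48 and 9.99 with N737H, with a log2 fold change of 0.28 ± 0.35. GDF15, a secreted stress cytokine, was near the limit of detection, with 4 to 47 counts per library. Its WT libraries differed by far more than any groups did, at 0.183 CPM in A (exact 95% Poisson interval 0.0499 to 0.469) and 2.27 in B (1.67 to 3.02). No direction can be read for GDF15 from these libraries, whose fitted change with N737H was -0.68 ± 1.04.

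FAS, TP53I3, TP53INP1, ZMAT3 and RRM2B cover cell death, redox, splicing and DNA repair. FAS, the death receptor, was at 33.8 and 30.4 CPM in WT, 41.6 and 30.0 with N737H and 37.9 and 23.0 with I593T, and its highest and lowest libraries were thus both variant libraries. TP53I3, a quinone oxidoreductase-like enzyme, was at 6.96 and 11.6 CPM in WT, which spans all other libraries. ZMAT3, an RNA-binding zinc-finger protein, was at 8.29 and 6.03 CPM in WT and at 4.95 and 9.74 with N737H, so that N737H held both its lowest and its highest value. TP53INP1, a nuclear and autophagy protein that promotes p53 activity, had 15 to 38 counts per library and differed from WT by -1.09 in N737H A and 0.71 in B. RRM2B, the p53-inducible subunit of ribonucleotide reductase, was at 30.5 and 22.1 CPM in WT and 25.8 and 24.1 with N737H, inside the WT range, with a log2 fold change of -0.07 ± 0.22. With I593T, RRM2B was lower in both letters, by a fitted -0.24 ± 0.22.

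**Figure D2:**
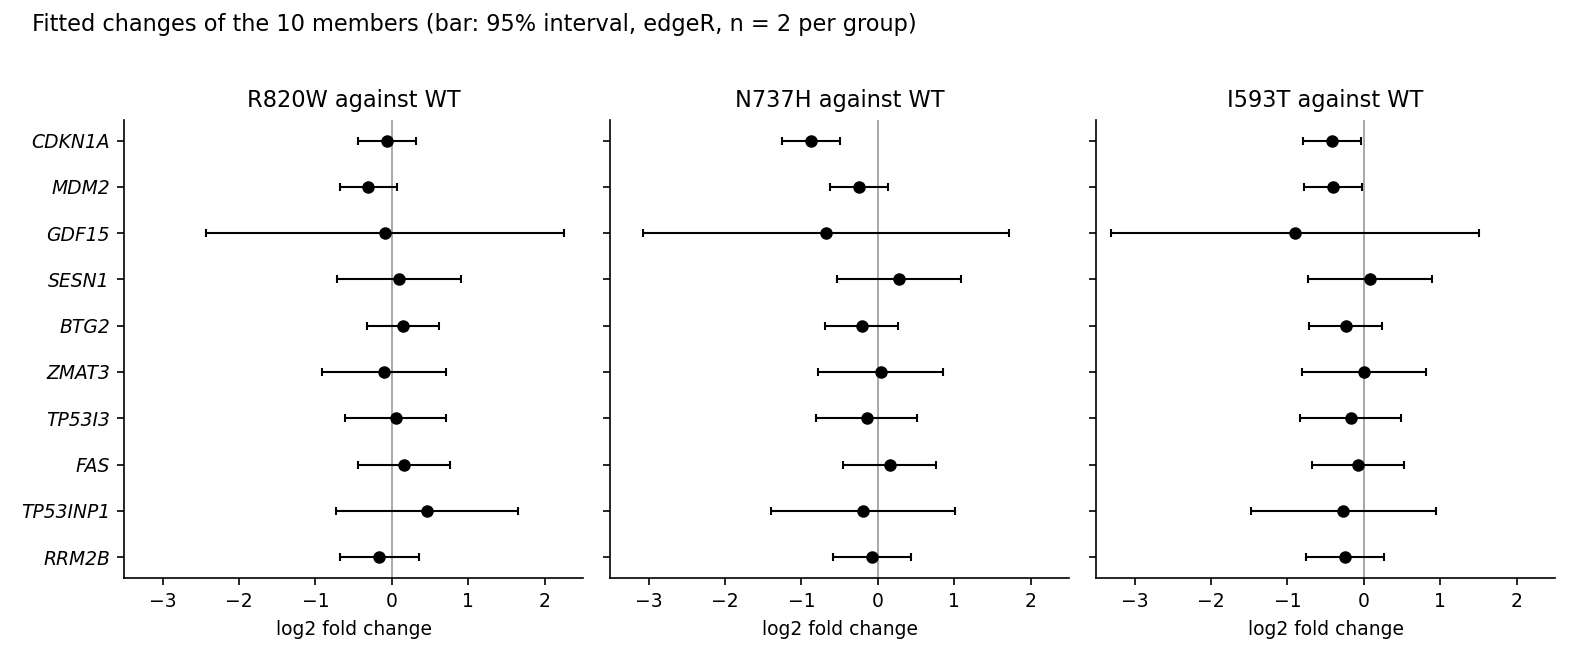
Fitted log2 fold changes against WT of the 10 members for R820W, N737H and I593T, with 95% intervals from edgeR (n = 2 libraries per group, the same WT libraries in each panel). CDKN1A with N737H, at -0.87, has an interval that ends at -0.49, and the intervals of the other 9 members in that panel all include 0.

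With N737H, the fitted values of the other 9 members were all closer to 0 than that of CDKN1A. Of these 9, 6 had a fitted value below 0 and 3 above, with a median log2 fold change of -0.15, where the median of all genes was -0.03. The 95% intervals of 7 of the 9 did not reach the fitted -0.87 of CDKN1A, and those of GDF15 and TP53INP1, the members with the fewest counts, did. CDKN1A's own interval, however, overlapped those of all the others except FAS. In the comparisons of I593T and of R820W with WT, the intervals of 9 of 9 reached the value of CDKN1A, as they did for R820W against I593T. They did so for 5 of 9 in N737H against I593T and for 4 of 9 in R820W against N737H. The difference between the change of CDKN1A and that of each member was not tested. Only CDKN1A and MDM2 among the 10 had group means that spread wider (0.88 and 0.40 on the log2 scale) than the largest gap between 2 libraries of 1 group (0.33 and 0.24).

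Within the letters, CDKN1A and MDM2 were the 2 of 10 members lower with N737H in both A and B, and SESN1 was higher in both, by 0.008 and 0.45. Over all genes 22.6% were lower in both and 16.7% higher in both. CDKN1A and MDM2 were also the 2 whose N737H libraries both lay below WT, where 12.4% of all genes did. With I593T, 3 members were lower in both letters (CDKN1A, MDM2 and RRM2B), against 26.4% of all genes, and 0 were higher in both, against 20.9%. CDKN1A and MDM2 were again the 2 without overlap, where 11% of all genes lay below WT. With R820W, 2 were lower in both letters (CDKN1A and MDM2), against 24.6% of genes, and 2 higher (SESN1 and FAS), against 22.9%, while MDM2 lay wholly below WT (12.8% of all genes) and FAS wholly above (12.6%). These shares are near the background, and the 3 comparisons share the WT libraries. Between N737H and I593T, CDKN1A was the 1 member of 10 with a lower fitted value in N737H, where 51.5% of all genes had one.

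**Figure D3:**
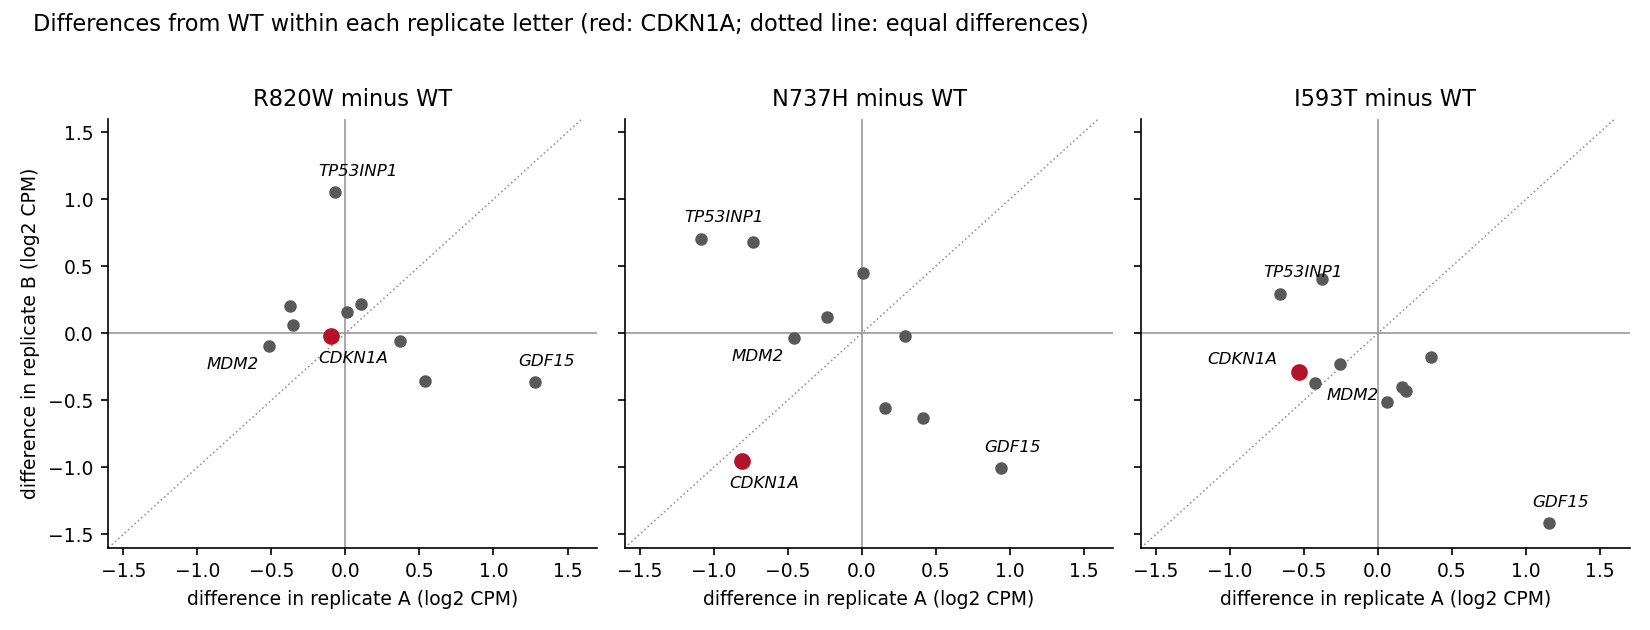
Difference from WT in log2 CPM within replicate A (x axis) and within replicate B (y axis) for the 10 members, with CDKN1A in red and points on the dotted line having equal differences. In the N737H panel CDKN1A lies at -0.81 and -0.95, near the dotted line, while GDF15 and TP53INP1 have opposite signs in A and B.

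TP63, the gene of the p53 relative p63, was lower than WT in both letters with each variant. TP63 was at 378 and 501 CPM in WT, 309 and 380 with N737H and 297 and 361 with I593T. Its log2 fold changes were -0.35 ± 0.21 with N737H, -0.42 ± 0.21 with I593T and -0.15 ± 0.21 with R820W (edgeR adjusted p = 1.00 in each). Of 15 regulators and relatives of p53, 14 were tested, 0 were called in either direction for each variant, and 6 were lower with N737H. HIPK2, a kinase that phosphorylates p53 and was picked out after its values were seen, had the largest difference there, at 0.824 and 0.738 CPM with N737H against 0.229 and 0.290 in WT, a low level.

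Other p53 targets, in 3 lists chosen from general knowledge, held 46 genes beyond the members, of which 42 were tested and 0 were called for any variant in either direction. With N737H, 29 of the 42 had a fitted value below 0, a median log2 fold change of -0.16, against 54.2% of all genes below 0. Within the letters their medians were -0.07 (A) and -0.24 (B). In both letters 17 of the 42 were lower and 6 higher, where 22.6% and 16.7% of all genes were. With I593T 20 of 42 were below 0 (54.4% of all genes), with a median of 0.003, and with R820W 15 of 42 (52% of all genes), with a median of 0.08. Between N737H and I593T, 36 of the 42 had a lower fitted value in N737H (median -0.16), where 51.5% of all genes had one. This was the direction of CDKN1A and not that of the other 9 members, but the contrast lay in B. Medians of the 42 were -0.008 in A and -0.25 in B, and 18 were lower in both letters. Medians of the 9 were -0.03 in A and 0.35 in B. For R820W against N737H, 30 of the 42 had a higher fitted value in R820W (median 0.195), where 6848 of 14834 genes had one. In both letters 20 of the 42 were higher and 4 lower, where 3906 and 3824 of all genes were. Without overlap 17 were higher and 2 lower, where 2260 and 1947 of all genes were. Of the other 9 members, 5 were higher and 4 lower there (median 0.005). These comparisons share the N737H libraries.

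Among arrest and repair targets, 10 of 15 were lower with N737H, with a median of -0.17. SFN, the epithelial 14-3-3 protein that holds cells in G2, was at 951 and 805 CPM with N737H against 983 and 1382 in WT (log2 fold change -0.43 ± 0.21), and most of that gap was in B. PLK3, a stress-activated kinase, was at -0.38 ± 0.29, and POLH, a translesion DNA polymerase, at 0.32 ± 0.21. PLK2 (0.07 ± 0.23) and PCNA (-0.15 ± 0.15) were close to WT. Among the apoptosis targets, 11 of 15 were tested and 7 were lower. BCL2L1, which encodes the survival protein BCL-xL, was at 82.7 and 77.9 CPM with N737H against 115 and 98.5 in WT, without overlap (-0.41 ± 0.17). PERP, a desmosomal and apoptosis-related membrane protein, was at -0.31 ± 0.16 with N737H and -0.30 ± 0.16 with I593T. PMAIP1, the BH3-only protein NOXA, was at -0.18 ± 0.19 with N737H. The TRAIL receptor TNFRSF10B went the other way, with 0.30 ± 0.23 for N737H and 0.61 ± 0.23 for I593T, whose 53 CPM in B was its highest value. In the list of metabolic, membrane and secreted products, 12 of 16 were lower with N737H (median -0.10). ABCA12, a lipid transporter of the epidermal barrier, was at -0.43 ± 0.31 and TM7SF3 at 0.28 ± 0.19. CMBL, at 1.19 ± 0.55, rested on 1 library, with 10.0 CPM in N737H B and 3.05 in A. THBS1 and IGFBP3, secreted matrix and growth-factor-binding proteins, had opposite signs in A and B (-0.36 and 0.47, and -1.32 and 1.5).

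**Figure D4:**
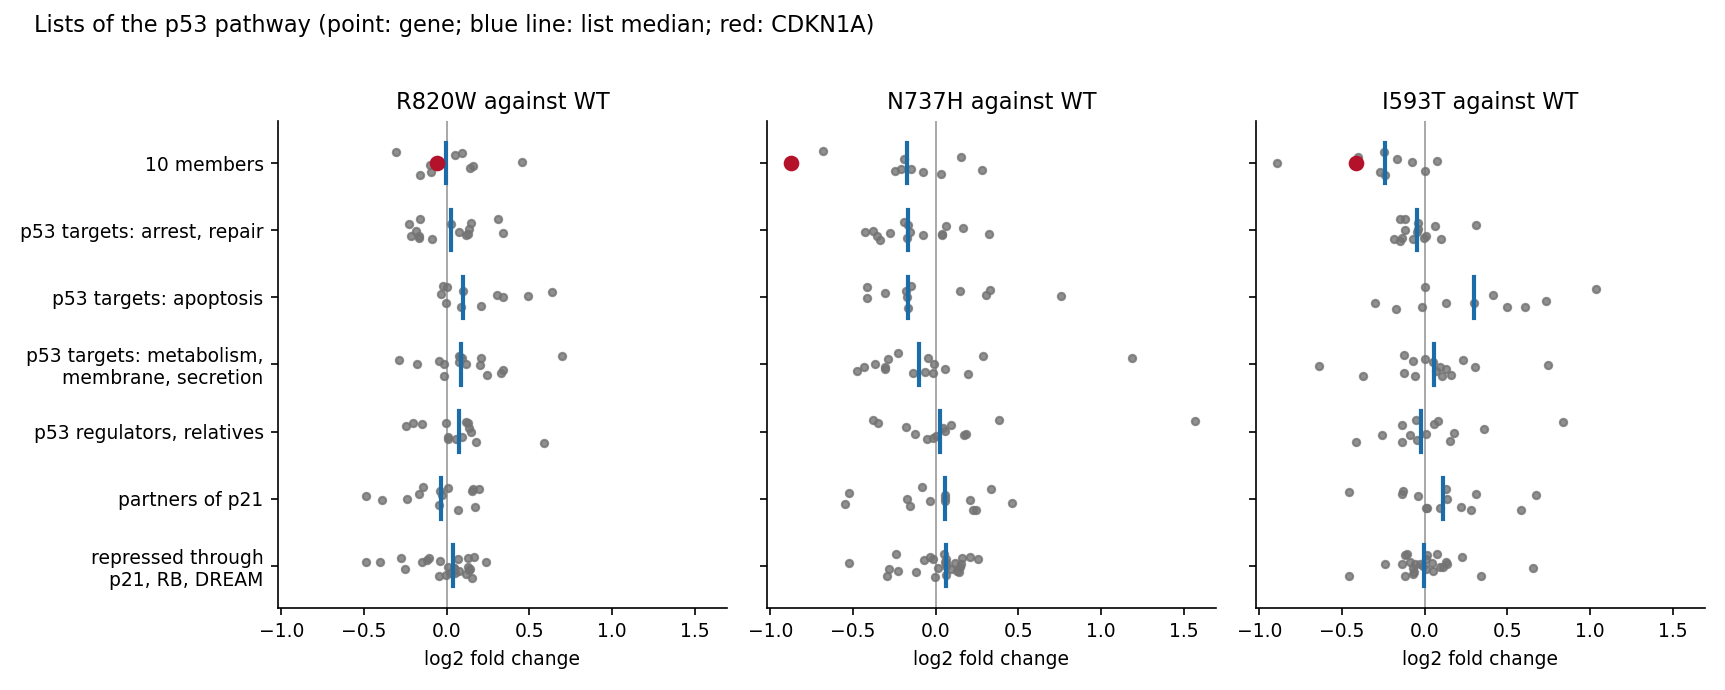
Fitted log2 fold changes against WT of the tested genes of each list of the p53 pathway, 1 point per gene with random vertical scatter, a blue line at the list's median and CDKN1A in red, on the same x axis in all panels. With N737H, CDKN1A at -0.87 lies lower than every other point shown, and the medians of the 3 lists of p53 targets lie at -0.17, -0.17 and -0.10.

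With N737H, genes on which p21 acts had fitted values on both sides of 0. Of 14 partners of p21 (cyclins, their kinases, PCNA and RB-family proteins), 6 were lower and 8 higher with N737H, with a median of 0.05. With I593T 4 were lower than WT, where 54.4% of all genes were, and 10 higher, with a median of 0.11. All 14 had a lower fitted value in R820W than in I593T (median -0.13), where 7375 of 14834 genes had one. In both letters, 5 of the 14 were lower, and 3903 of the 14834 genes were. CCND1, the cyclin of early G1, was at 446 and 758 CPM with N737H against 606 and 424 in WT, so that its sign turned between A and B. Of 26 genes repressed through p21, RB and the DREAM complex, 10 were lower and 16 higher, with a median of 0.06, or 0.36 in A and -0.22 in B. The mitotic cyclin CCNB1 had 786 CPM against 453 in A and 505 against 735 in B, and TOP2A 666 against 498 and 472 against 541. None of either list was called with any variant (edgeR). Of 6 other CDK inhibitors, 5 were tested, 0 were called with any variant, and with N737H none was lower in both letters. By the fit, 2 of the 5 were lower and 3 higher with R820W, and 1 was lower and 4 higher with I593T. CDKN2B, the p15 gene, picked out after its values were seen, was lower in both letters with R820W and I593T. It was at 2.76 and 4.13 CPM with R820W, 2.54 and 2.57 with I593T and 3.16 and 4.54 in WT. CDKN2C, also picked out after its values were seen, was higher in both letters with R820W. It was at 1.15 and 2.23 CPM against 0.275 and 0.917 in WT, with 6 to 41 counts per library. CDKN2A, whose locus encodes p16 and ARF, was at 20.9 and 44.5 CPM in WT and 36.9 in both N737H libraries, and CDKN1B, the p27 gene, at 2.15 and 12 in WT and 5.53 and 8.76 with N737H.

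Of 14 transcription factors known at the CDKN1A promoter, 9 were lower with N737H, where 54.2% of all genes were. In both letters 7 were lower, against 22.6% of all genes, and 0 were called. KLF6, a zinc-finger activator of CDKN1A, was at 99.4 and 63.0 CPM against 162 and 88.0 in WT (log2 fold change -0.62 ± 0.36). STAT3 was at 209 and 183 against 233 and 245 (-0.28 ± 0.14), without overlap. MYC, which represses CDKN1A and is named in the title of the series, was at 739 and 641 CPM against 741 and 744 in WT (-0.11 ± 0.15). Of the 11 stress-response genes that share regulators with CDKN1A or GDF15, 8 were lower with N737H (median -0.11), against 54.2% of all genes, and 0 were called. FOS, of that list, was at 218 and 118 CPM with N737H against 114 and 331 in WT.

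The 5 genes whose levels most resembled CDKN1A were in none of the lists of p53 targets. Those lists held 46 genes beyond the 10 members, a small part of the 9583 ranked, so this absence carries little weight. Likeness was the root mean square difference in log2 CPM over the 8 libraries, after each gene was centred within A and within B, and 9583 genes with a mean of at least 5 CPM were ranked. A gene with no change at all would be 0.357 from CDKN1A. The nearest were CYP2S1, a cytochrome P450 of epithelia (0.0919), TNIP1, a partner of the deubiquitinase A20 (0.102), CCL20, a chemokine (0.103), AHNAK2, a large scaffold-like protein (0.105), and GRB7, an adaptor of receptor tyrosine kinases (0.108). TNIP1 was at 191 and 157 CPM in WT, 190 and 164 with R820W, 140 and 85.6 with N737H and 151 and 143 with I593T. Like CDKN1A, it was lowest in both N737H libraries and overlapped between R820W and WT, a likeness for which it was picked from these same libraries. GRB7 was at 17.9 and 18 CPM in WT, 19.0 and 18.1 with R820W, 13.1 and 10.4 with N737H and 12.9 and 14.8 with I593T. Of the members, BTG2 ranked 1077 (0.291), TP53I3 3713 (0.351) and MDM2 4039 (0.356), and these 3 were nearer than an unchanging gene, as were 42.6% of all genes ranked. RRM2B ranked 5520, FAS 7055, ZMAT3 7995 and SESN1 8488, while GDF15 and TP53INP1 were below 5 CPM. Likeness here is a description of 8 libraries, in which genes share depth and letter, and no test was made. With each gene centred over all 8 libraries instead, GRB7, CCL20 and TNIP1 were the 3 nearest and CYP2S1 ranked 259.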

How the data were processed

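The values the authors deposited are raw counts, 1 whole number for each gene symbol and library (8 libraries), not normalised. FastQC, MACS2, DESeq2 and hg19 are listed, with neither version nor role, in the submitters' processing notes. Aligner, counter, annotation and strand setting: not given in the sources used here. The members and gene lists were chosen with earlier results of these data known. Some list symbols were matched through older names (PIDD for PIDD1, C12orf5 for TIGAR, KIAA0247 for SUSD6).

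edgeR 4.0.16 (R 4.3.3) kept 14834 of 28518 genes by filterByExpr, scaled libraries by TMM and fitted the group means of all 8 libraries together (4 residual degrees of freedom). Each test was a two-sided quasi-likelihood F test, adjusted by the Benjamini-Hochberg method over all genes tested, with a threshold of 0.05. The script was tested on simulated data. Differences within a letter use log2 CPM (prior count 2). Named genes were the members, CARD14, up to 3 genes per list of highest mean, up to 3 p53 targets per list of smallest p with N737H, and the 5 nearest in likeness. Alternatives were RLE scaling, other filters, DESeq2 1.42.0, limma 3.58.1 voom, a replicate block, fits of only 2 groups, removal of CARD14 and each library left out. The series text speaks of 2 independent experiments without tying them to the letters, so p-values reflect only how these libraries varied, which may be technical. Promoters are from RefSeq on GRCh38.p14, a later build than hg19, and are used for sequence only. Results for some genes of the lists are not reported here.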

Additional observations from a re-analysis of the deposited data

How the results depend on the processing

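The main fit took no account of the letters. Differences within a letter compared libraries of the same letter, and likeness was centred within each letter. Deviations from the group means correlated across genes at 0.024 between WT and N737H and at 0.31 to 0.41 between other groups. With the replicate block, edgeR gave CDKN1A a log2 fold change of -0.88 with N737H (adjusted p = 0.724), and DESeq2 gave -0.87 (adjusted p = 0.000271), 1 member called. For R820W against N737H DESeq2 with the replicate block gave 0.81 (adjusted p = 0.000896), 1 member called. No other alternative called a member in any of the 6 comparisons, and over all alternatives the adjusted p of CDKN1A with N737H ran from 0.000271 to 1.00.

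CDKN1A kept its direction under every alternative in 5 of the 6 comparisons. With R820W against WT it ran from -0.16 to 0.077 as libraries were left out, and with N737H from -1.07 to -0.70. MDM2 kept its direction in the 3 comparisons with WT. As libraries were left out, FAS and TP53INP1 with R820W (0.081 to 0.28 and 0.066 to 1.03) and BTG2 with I593T (-0.38 to -0.016) kept their sign. All other results of the remaining 8 members changed sign, and the cause was not tested. GDF15 ran from -1.06 to 2.60 with R820W, -1.52 to 2.01 with N737H and -1.74 to 1.80 with I593T. SESN1 ran from -0.20 to 0.36 with R820W, -0.20 to 0.63 with N737H and -0.068 to 0.30 with I593T. BTG2 ran from -0.012 to 0.36 with R820W and -0.39 to 0.0071 with N737H. ZMAT3 ran from -0.32 to 0.18 with R820W, -0.51 to 0.42 with N737H and -0.21 to 0.30 with I593T. TP53I3 ran from -0.23 to 0.46 with R820W, -0.42 to 0.26 with N737H and -0.44 to 0.24 with I593T. FAS ran from -0.12 to 0.39 with N737H and -0.48 to 0.24 with I593T. TP53INP1 ran from -0.76 to 0.39 with N737H and -0.65 to 0.31 with I593T. RRM2B ran from -0.38 to 0.13 with R820W, -0.29 to 0.23 with N737H and -0.48 to 0.054 with I593T. GDF15 was also at 0.54 (R820W) and 0.083 (N737H) by limma voom, and with the replicate block at 0.198 in edgeR and 0.254 in DESeq2 for R820W. ZMAT3, close to 0, was at -0.032 by limma voom, and at -0.016 in edgeR and -0.015 in DESeq2 with the replicate block for N737H. For I593T it was at -0.0017 without a filter, -0.00076 by limma voom, and -0.025 in edgeR and -0.020 in DESeq2 with the replicate block. Counts per library were 4 to 47 for GDF15 and 15 to 38 for TP53INP1, and the exact Poisson intervals of GDF15 in WT A and WT B did not overlap.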
